A study of Homo sapiens with 18 samples.

Results

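Ribosome biogenesis factors are the proteins that make, modify, cut and fold ribosomal RNA and assemble it with ribosomal proteins, and that are absent from the finished ribosome. The 59 genes described here were listed by symbol, and each was found by the symbol of its row among the 60683 gene rows of both count tables, so 59 of 59 had a row. RNA polymerase I transcribes the precursor rRNA in the nucleolus, small nucleolar ribonucleoproteins (snoRNPs) modify it at guided sites, the small-subunit processome folds and cuts the part that becomes the small subunit, and a separate set of factors, PeBoW among them, builds the large subunit. Growing cells spend much of their transcription and translation on this pathway, and colorectal carcinoma lines are known for high MYC activity, of which many of these genes are textbook targets. By role, the list held 3 RNA polymerase I and rDNA helicase genes, 3 box C/D and 4 box H/ACA snoRNP proteins, 3 nucleolar chaperones and scaffolds, 20 small-subunit processome members, 5 late small-subunit maturation factors, 3 PeBoW subunits and 18 other large-subunit factors.

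The study measured polyadenylated RNA in HCT-116, a long-established line from a human colorectal carcinoma, with 18 libraries in 6 groups of 3 in 2 separately normalised tables. In the first table, ACTB-WT cells carried wild-type actin, ACTB-mut cells carried the H73A form of actin, and Actin KO cells carried an empty construct; all 3 groups were Actin KO cells with a stably expressed construct, so the control carried the knockout as well. In the second table, SETD3_KO1 and SETD3_KO2 were labelled as knockouts of SETD3, the methyltransferase of the actin histidine that H73A replaces, and SETD3_CT was their control. The cell line label read HCT-117 for 1 library, SETD3_KO2 replicate 3, which was kept in its group. Neither the promoter of the constructs nor the number of clones behind a line was given, and whether replicates came from separate cultures was not labelled, so a p-value here reflects only sample-to-sample spread. In bulk RNA, fewer cells with a transcript and less of it per cell cannot be told apart.

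Total counts per library ranged from 3389586 in SETD3_KO2 replicate 1 to 11652967 in SETD3_KO2 replicate 3. ACTB had 31, 29.2 and 23.2 CPM (counts scaled to library size with TMM factors) in ACTB-WT libraries, and 47.1, 32 and 43 CPM in ACTB-mut libraries, against 16.7, 24.9 and 14.9 in Actin KO, while it lay between 662 and 1460 CPM in the SETD3 table. Neither difference from Actin KO passed the test (log2 fold change 0.56, adjusted p = 0.496, with overlapping libraries in ACTB-WT, and 1.11, adjusted p = 0.093, without overlap in ACTB-mut), so ACTB RNA did not check the labels of the expressed constructs. SETD3 RNA passed no test in either line labelled as a knockout, at 6.81, 6.34 and 17.1 CPM in SETD3_KO1 and 15.6, 22.3 and 27.7 CPM in SETD3_KO2, against 15.5, 14 and 36 CPM in SETD3_CT, so the RNA did not check those labels, and in SETD3_KO2 it was at the level of SETD3_CT (log2 fold change 0.01). SMARCA4, the chromatin remodeller of the series title, was called in no comparison by edgeR's quasi-likelihood test. Of the epithelial markers, EPCAM, KRT8, KRT18 and KRT19 were between 169 and 6680 CPM, whereas CDH1 stayed at or below 10.7 CPM, KRT20 at or below 2.62 and VIL1 at or below 0.148, and CDX1 was at 0. The epithelial list summed to 7930 to 13400 CPM, the fibroblast list to 0.597 to 15.3, the blood list to 0.134 to 14.3, the liver and kidney list to 10.4 to 45.2 and the neural list to 63.1 to 154 CPM. PTPRC, CD3E, DCN, LUM, COL3A1, ALB and APOB were at 0 in every library, while COL1A1 reached 15.3, LYZ 14.3, THY1 3.83, APOA1 5.34, PAX2 36.1 and TUBB3 145 CPM. SETD3_CT replicate 2 and SETD3_KO2 replicate 1 were the shallowest libraries of the SETD3 table and had the highest correlations of expression deviation with transcript GC content there (0.45 and 0.48, the others -0.49 to 0.26). SETD3_KO2 replicate 3 had the lowest, so that group held both extremes. In the ACTB table this correlation was -0.37, -0.23 and -0.13 in ACTB-mut libraries. It was 0.21, 0.16 and -0.06 in ACTB-WT libraries and -0.02, 0.1 and 0.33 in Actin KO. Every ACTB-mut library thus lay below all others of that table, and fits with GC and length offsets are given below. The part of GC content in the ACTB-mut differences was not tested.

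Levels among the members differed by several orders of magnitude. Per kilobase of the longest annotated transcript, and averaged over the 18 libraries, FBL was highest at 730 CPM per kb. FBL is fibrillarin, the ribose methyltransferase of box C/D snoRNPs, and NHP2, a core protein of the pseudouridine-forming box H/ACA snoRNPs, followed at 704 CPM per kb. EBNA1BP2, a large-subunit assembly factor, was the highest of its role at 261 CPM per kb. NOB1, the endonuclease that makes the last cut of small-subunit rRNA, stood at 164 CPM per kb. BOP1, a PeBoW subunit, had 143 CPM per kb and IMP4, a processome protein, had 139 CPM per kb, and these neighbours overlapped between libraries. NCL, nucleolin, had 123 CPM per kb and DDX21, an RNA helicase of rDNA transcription and rRNA processing, 22.9 CPM per kb. WDR75 at 0.361 and NOC3L at 0.137 CPM per kb were lowest, and both were too low to be tested in the ACTB table, which left 57 tested members there and 59 in the SETD3 table.

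**Figure D1:**
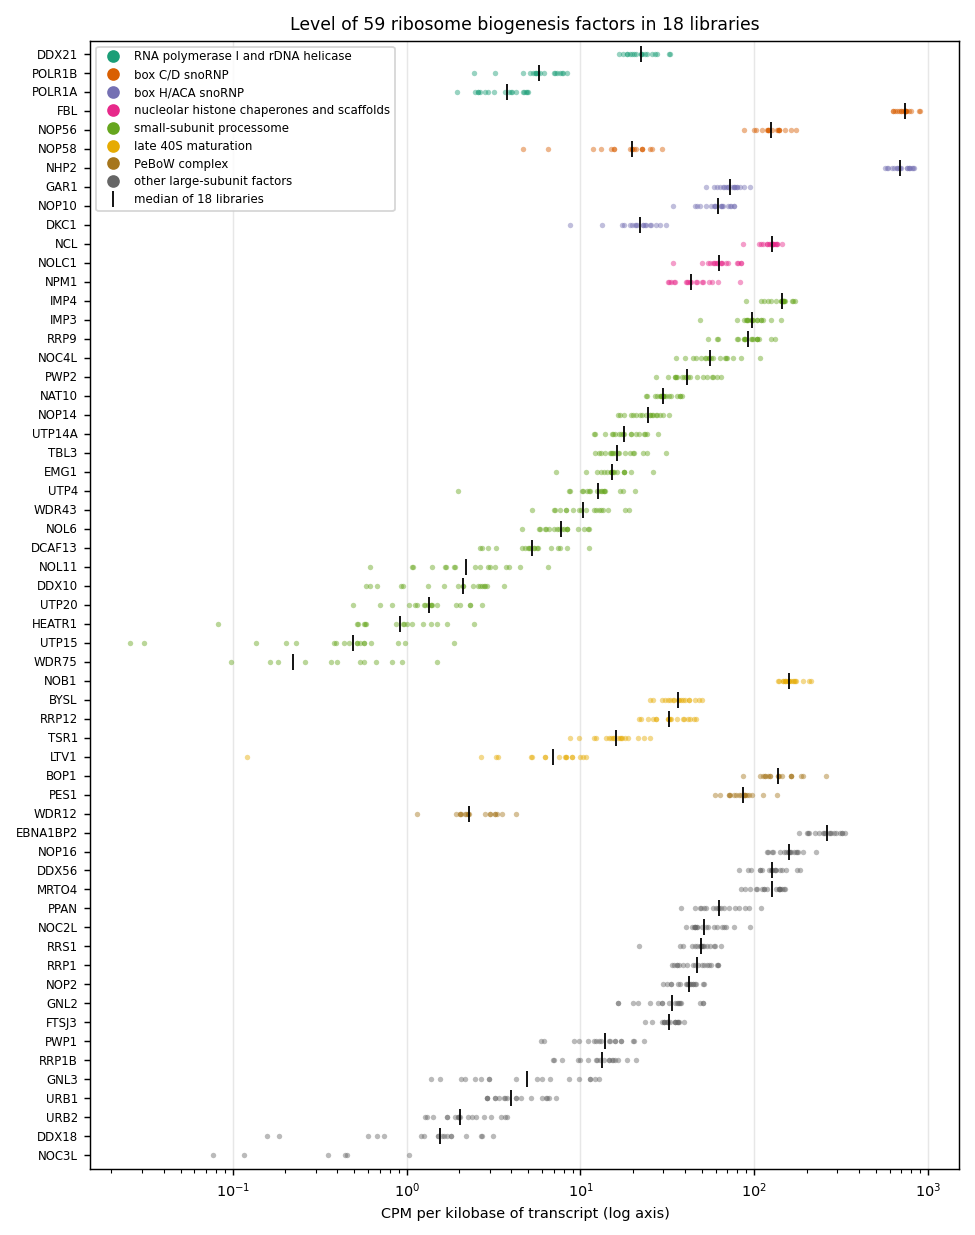
Level of each of the 59 members in the 18 libraries, in CPM per kilobase of transcript on a log axis, ordered by level within each role. Points are libraries (those at 0 are not drawn) and black ticks are medians; FBL and NHP2 have the highest levels and NOC3L the lowest.

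Proteins that work in a common complex were not at a common RNA level. Within the box C/D proteins, FBL at 730 CPM per kb stood far above NOP56 at 128 and NOP58 at 18.4 CPM per kb. Within the box H/ACA proteins, NHP2 at 704 stood above GAR1 at 72.6, NOP10 at 60.6 and DKC1, the pseudouridine synthase, at 21.6 CPM per kb. Within PeBoW, BOP1 at 143 and PES1 at 85.5 stood above WDR12 at 2.60 CPM per kb. The longest transcript of WDR12 had 8100 bases, against 2303 for BOP1 and 2760 for PES1, which widened this gap. Without division by length, the Actin KO means were 319 CPM for BOP1, 242 for PES1 and 19.7 for WDR12. Across the 59 members the level per kilobase had a Spearman correlation of 0.68 with the GC content of the transcript and of -0.69 with its length; across 12918 genes tested in both tables these were 0.38 and -0.52. Genes are not independent replicates, and the part of transcript composition in these orders was not tested. NPM1, nucleophosmin, had 45.9 CPM per kb, but 46 rows annotated as its pseudogenes held 58.3% (ACTB table) and 76.2% (SETD3 table) as many counts as NPM1, so its level is uncertain. For NOP56 the same share was 4.44% and 3.64%.

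The most abundant members, FBL and NHP2, were not called in any comparison. FBL had 830, 928 and 864 CPM in ACTB-WT libraries, 860, 857 and 766 CPM in ACTB-mut libraries, against 905, 858 and 862 CPM in Actin KO, and these groups overlapped. NHP2 had 670, 698 and 708 CPM in ACTB-WT libraries, 535, 670 and 605 CPM in ACTB-mut libraries, against 552, 569 and 574 CPM in Actin KO; the ACTB-WT libraries lay above the Actin KO libraries without a call (log2 fold change 0.29, SE 0.11, adjusted p = 0.270). The SETD3 table was more scattered. FBL had 733, 849 and 1040 CPM in SETD3_KO1 and 1030, 786 and 724 CPM in SETD3_KO2, against 805, 743 and 812 CPM in SETD3_CT. NHP2 had 585, 593 and 652 CPM in SETD3_KO1 and 677, 511 and 503 CPM in SETD3_KO2, against 489, 721 and 650 CPM in SETD3_CT, and all these groups overlapped. The median coefficient of variation between replicates, without counting error, for the tested members was 18.3% (ACTB table) and 28.2% (SETD3 table), against 42.6% and 53.9% for all tested genes. The median standard error of a member's log2 fold change was 0.19 in the ACTB table and 0.30 for a single SETD3 KO line.

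Both promoter motifs that were searched were more frequent among the members than among other genes. RefSeq (GRCh38.p14) gave a promoter of 250 bases before and 50 after the annotated start for 50 of the 59 members. The E-box CACGTG, the palindromic motif known as a binding site of MYC with MAX, stood in 21 of these 50 promoters (42%), in 10% of the promoters of 10041 other tested genes and in 7.26% of all 35116 promoters of the table. Most of them lay near the start: 18 of the 23 E-boxes of members (78.3%) began within 20 bases before and 40 bases after the start, a window chosen after the positions were seen, against 18.9% of the E-boxes of the other tested genes. The palindromic NRF1 consensus motif stood in 4 of 50 member promoters (8%), against 2.23% of the other tested genes and 1.24% of all promoters. Median GC content was 63.8% in member promoters and 65.7% in the others. A match is a description of letters and not a measured binding site. MYC RNA itself differed in no comparison by the quasi-likelihood test: it averaged 130 ± 11.3 CPM in ACTB-WT libraries, 123 ± 8.98 CPM in ACTB-mut libraries, against 122 ± 9.39 CPM in Actin KO, and 94.7 ± 14.8 CPM in SETD3_KO1 and 128 ± 25 CPM in SETD3_KO2, against 98.9 ± 14 CPM in SETD3_CT (SD, n = 3 libraries each).

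The promoters of 5 members are shown: BYSL, PWP2, PPAN and URB1 return in the comparisons, and FBL had the highest level per kilobase. FBL, BYSL and PWP2 hold an E-box near the start, and PPAN and URB1 hold neither motif. Each runs 5′ to 3′ on the strand of its gene, with the annotated start 50 bases before the end, and capitals mark the E-box.
FBL (chr19:39846330-39846629, minus strand): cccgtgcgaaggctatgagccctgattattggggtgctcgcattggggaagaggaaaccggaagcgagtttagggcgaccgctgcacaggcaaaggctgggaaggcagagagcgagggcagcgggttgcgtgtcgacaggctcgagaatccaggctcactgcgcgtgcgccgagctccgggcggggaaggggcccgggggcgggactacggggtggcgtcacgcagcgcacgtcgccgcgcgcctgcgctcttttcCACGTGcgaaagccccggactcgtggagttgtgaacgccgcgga
BYSL (chr6:41921249-41921548, plus strand): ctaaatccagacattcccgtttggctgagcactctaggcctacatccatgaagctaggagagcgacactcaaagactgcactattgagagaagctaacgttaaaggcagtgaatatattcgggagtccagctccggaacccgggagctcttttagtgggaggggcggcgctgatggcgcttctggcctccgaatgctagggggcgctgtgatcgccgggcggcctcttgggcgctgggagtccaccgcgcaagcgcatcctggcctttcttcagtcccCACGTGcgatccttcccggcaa
PWP2 (chr21:44107149-44107448, plus strand): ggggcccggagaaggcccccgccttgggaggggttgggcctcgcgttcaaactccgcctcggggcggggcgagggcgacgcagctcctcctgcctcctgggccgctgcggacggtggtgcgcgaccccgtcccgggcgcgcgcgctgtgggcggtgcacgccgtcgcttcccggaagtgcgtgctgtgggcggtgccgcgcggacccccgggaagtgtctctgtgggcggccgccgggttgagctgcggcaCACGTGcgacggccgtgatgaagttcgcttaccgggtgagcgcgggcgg
PPAN (chr19:10105973-10106272, plus strand): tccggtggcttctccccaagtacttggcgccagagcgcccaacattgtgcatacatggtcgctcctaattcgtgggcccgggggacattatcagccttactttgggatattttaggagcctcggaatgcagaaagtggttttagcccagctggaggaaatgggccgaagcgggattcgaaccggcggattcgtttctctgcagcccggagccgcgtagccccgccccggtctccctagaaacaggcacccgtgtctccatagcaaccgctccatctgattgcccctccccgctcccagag
URB1 (chr21:32392963-32393262, minus strand): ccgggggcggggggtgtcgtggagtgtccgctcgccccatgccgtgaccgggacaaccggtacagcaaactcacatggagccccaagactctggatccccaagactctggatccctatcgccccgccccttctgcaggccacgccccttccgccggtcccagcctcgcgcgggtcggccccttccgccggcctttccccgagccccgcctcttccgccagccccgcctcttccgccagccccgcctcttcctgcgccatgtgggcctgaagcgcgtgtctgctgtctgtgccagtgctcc

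The comparison of ACTB-WT with Actin KO set cells labelled as expressing wild-type actin against cells with the empty construct. PPAN, the human Peter Pan homologue needed for large-subunit assembly, rose, and URB1, a large scaffold protein of early large-subunit precursors, fell. These were 1 member called higher and 1 called lower of 57, where 0.439% and 0.677% of the 13882 tested genes were called higher and lower and 1.12% in all (an adjusted p below 0.05 in edgeR's quasi-likelihood test). The other 55 tested members passed in neither direction. The median log2 fold change was -0.03 over the members and -0.01 over all tested genes, and 25 members were above 0 (49.3% of all tested genes were) and 32 below. Libraries of the groups did not overlap for 4 members on the higher side (7.64% of all tested genes) and 8 on the lower side (9.08%). In the quasi-likelihood test 7 of 57 members had an unadjusted p below 0.05 (11.2% of all tested genes did).

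PPAN (ENSG00000130810) lies at chr19:10106289-10111634 on the plus strand of GRCh38. PPAN had 180, 154 and 146 CPM in ACTB-WT, against 84.6, 107 and 80.8 CPM in Actin KO. All ACTB-WT libraries lay above all Actin KO libraries (log2 fold change 0.81, SE 0.16, adjusted p = 0.0217). ACTB-mut sat between them at 104, 95.3 and 119 CPM and overlapped Actin KO. When replicate 1 or 3 of Actin KO, or replicate 1 or 2 of ACTB-WT, was left out the call did not hold; over the 6 fits that left out 1 library the log2 fold change was 0.71 to 0.94 and the adjusted p 0.0236 to 0.116. PPAN overlaps P2RY11 on the same strand, a gene with 290 counts on average in this table against 909 for PPAN, and how reads of that overlap were divided is not given.

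URB1 (ENSG00000142207) had 31.2, 31.6 and 39.2 CPM in ACTB-WT, against 68.4, 78.1 and 69.4 CPM in Actin KO. No ACTB-WT library reached any Actin KO library (log2 fold change -1.08, SE 0.22, adjusted p = 0.0249), and ACTB-mut lay between the groups at 40.7, 64.8 and 46.3 CPM. Without any one of the Actin KO libraries, or without ACTB-WT replicate 1 or 2, the call was lost; the log2 fold change stayed between -1.20 and -1.03 and the adjusted p ran from 0.0400 to 0.104. The limma-voom fit gave -1.09 with an adjusted p of 0.0535.

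Among uncalled members, PWP1, a nucleolar WD-repeat protein of growth-dependent rRNA production, had 25.7, 28.9 and 24 CPM in ACTB-WT, against 44.7, 53.2 and 45 CPM in Actin KO. The groups did not overlap, with a log2 fold change of -0.86 (SE 0.24, adjusted p = 0.122), and DESeq2 called it with an adjusted p of 0.0483. EBNA1BP2 had 408, 432 and 482 CPM in ACTB-WT, against 371, 308 and 311 CPM in Actin KO, also without overlap (0.42, SE 0.13, adjusted p = 0.186). By role, the 3 PeBoW members were above 0 with a median of 0.14, and 13 of 19 tested processome members were below 0 with a median of -0.09.

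**Figure D2:**
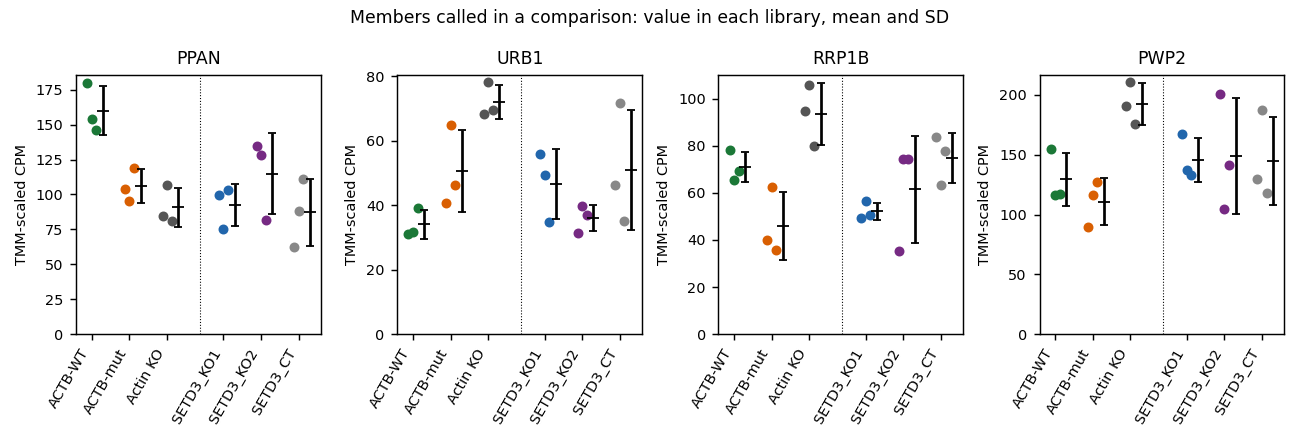
TMM-scaled CPM of PPAN, URB1, RRP1B and PWP2 in each of the 18 libraries (points), with the mean and SD of 3 beside them; the 2 tables are split by the dotted line and were normalised separately. PPAN is highest in ACTB-WT, URB1 is lowest in ACTB-WT within its table, and RRP1B and PWP2 are highest in Actin KO.

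The comparison of ACTB-mut with Actin KO did the same for cells labelled as expressing the H73A form. RRP1B, a nucleolar relative of the yeast large-subunit factor Rrp1, and PWP2, a core subunit of the small-subunit processome, fell. No member was called higher and 2 were called lower, where 0.324% and 0.598% of tested genes were (0.922% in all), and the remaining 55 passed in neither direction. The member median was -0.06, against 0.03 for all tested genes, with 24 members above 0 (52% of all tested genes were) and 33 below. Groups did not overlap for 5 members on the higher side (9.31% of all tested genes) and 7 on the lower (9.16%). In the quasi-likelihood test 13 of 57 members had an unadjusted p below 0.05 (11.5% of all tested genes did).

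RRP1B (ENSG00000160208) had 39.9, 62.6 and 35.6 CPM in ACTB-mut, against 94.7, 106 and 80.0 CPM in Actin KO. Every ACTB-mut library was below every Actin KO library (log2 fold change -1.02, SE 0.22, adjusted p = 0.0344), and ACTB-WT, at 78.1, 65.7 and 69.2 CPM, was also below without a call (-0.40, adjusted p = 0.530). The call was lost without any one Actin KO library or without ACTB-mut replicate 1 or 3 (log2 fold change -1.32 to -0.88, adjusted p 0.0143 to 0.167 over the 6 fits). It was also lost in a fit of these groups alone (-1.03, adjusted p = 0.0760) and with GC and length offsets (-0.96, adjusted p = 0.0579).

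PWP2 (ENSG00000241945) had 89.4, 116 and 127 CPM in ACTB-mut, against 191, 211 and 176 CPM in Actin KO. The groups stood well apart (log2 fold change -0.80, SE 0.17, adjusted p = 0.0326). In ACTB-WT it had 155, 116 and 117 CPM, also below every Actin KO library (-0.58, adjusted p = 0.148). Leaving out any one Actin KO library, or ACTB-mut replicate 1 or 2, ended the call (log2 fold change -0.92 to -0.67, adjusted p 0.0482 to 0.158), as did GC and length offsets (-0.62, adjusted p = 0.126).

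Uncalled members included NOP58, a box C/D core protein, with 46.5, 40.5 and 41.5 CPM in ACTB-mut, against 40.3, 24.2 and 26.9 CPM in Actin KO. Its groups only just separated (log2 fold change 0.49, SE 0.25, adjusted p = 0.479). NOP10, the smallest box H/ACA protein, had 35.9, 40.6 and 40.3 CPM in ACTB-mut, against 27.1, 35.8 and 25.8 CPM in Actin KO (0.40, SE 0.25, adjusted p = 0.602). Over the 7 alternatives other than leaving out 1 library, the log2 fold change ran from 0.18 to 0.54 for NOP58. For NOP10 it ran from 0.13 to 0.41. All 5 late small-subunit maturation factors were below 0 with a median of -0.26, and BYSL, a factor of nuclear small-subunit export, had the lowest of these values (-0.50, SE 0.19, adjusted p = 0.312). ACTB-WT and ACTB-mut were both set against the same Actin KO libraries, so their fold changes are not independent.

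**Figure D3:**
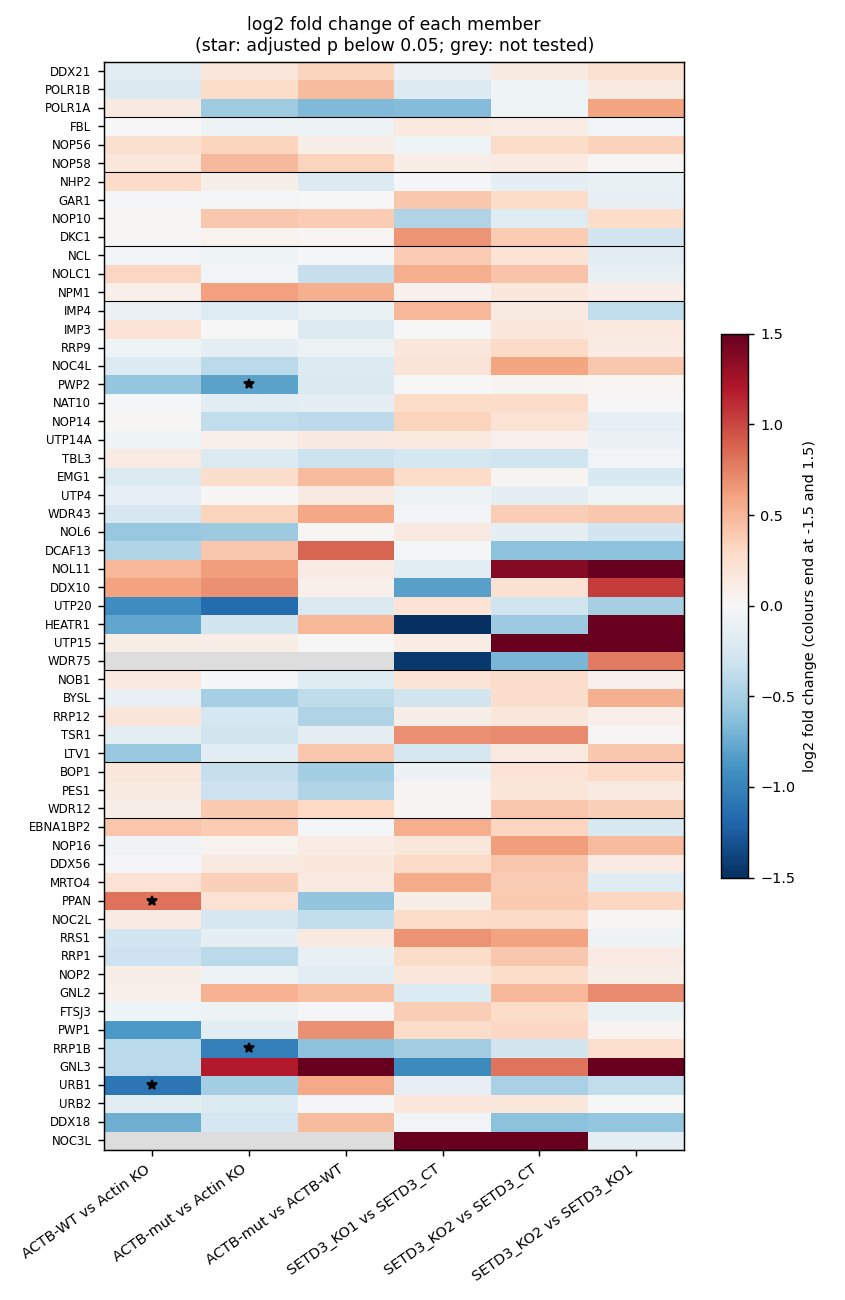
log2 fold change of every member (rows, grouped by role) in 6 comparisons (columns), from blue for lower to red for higher in the first-named group; stars mark adjusted p below 0.05 and grey marks members not tested. The 4 stars are PPAN, URB1, RRP1B and PWP2, all in columns against Actin KO.

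URB1, RRP1B, PWP2 and RRP1, a paralogue of RRP1B, are the 4 members on chromosome 21, and all 4 had negative fold changes in both comparisons with Actin KO, a grouping noticed after the values were seen. In GRCh38, URB1 lies at chr21:32311018-32393026, RRP1B at chr21:43659548-43696079, RRP1 at chr21:43789513-43805293 and PWP2 at chr21:44107290-44131181. RRP1 had 138, 162 and 112 CPM in ACTB-WT libraries, 104, 124 and 155 CPM in ACTB-mut libraries, against 151, 187 and 170 CPM in Actin KO, which overlapped both (-0.31, adjusted p = 0.571, and -0.41, adjusted p = 0.373).

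Other genes of chromosome 21 lay mostly below 0 as well. In ACTB-WT against Actin KO, the 59 chromosome 21 genes at 20 CPM or more that are not members had a median log2 fold change of -0.52; 48 (81.4%) were below 0 and 9 (15.3%) were called lower. The other 5377 genes at that level had a median of 0, with 50.3% below 0 and 62 called lower, and the next lowest chromosome median was -0.12, on chromosome 7. In ACTB-mut against Actin KO the 61 such genes had a median of -0.23, 62.3% were below 0 and 3 (4.92%) were called lower. The 5394 other genes had a median of -0.04, with 54% below 0 and 70 (1.3%) called lower, and chromosome 7 was next at -0.20. Chromosomes 19, 20 and 22 had larger shares below 0 (66.7%, 65.1% and 65.8%), and on chromosome 7 21 of 264 genes were called lower. By these shares chromosome 21 did not stand apart in ACTB-mut. Each library's median deviation over 53 chromosome 21 genes was -0.20, -0.11 and -0.23 in ACTB-WT libraries, 0.06, 0.07 and -0.04 in ACTB-mut libraries, against 0.23, 0.24 and 0.31 in Actin KO (log2). The 3 groups did not overlap in this value. With SETD3_CT as a common denominator the group values were -0.19 for ACTB-WT, -0.02 for ACTB-mut and 0.35 for Actin KO, although the tables were normalised separately. In ACTB-mut against Actin KO the difference was uneven along chromosome 21. The 3 genes called lower, NDUFV3 (-1.05), AGPAT3 (-1.12) and UBE2G2 (-0.78), start at 42879644, 43865186 and 44768580, near RRP1B and PWP2. The neighbours of URB1 lay on both sides of 0 (MIS18A 0.20, URB1-AS1 0.91, EVA1C 0.27 and CFAP298 -0.10). The part of the chromosome 21 difference in the lower URB1, RRP1B and PWP2 values was not tested.

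**Figure D4:**
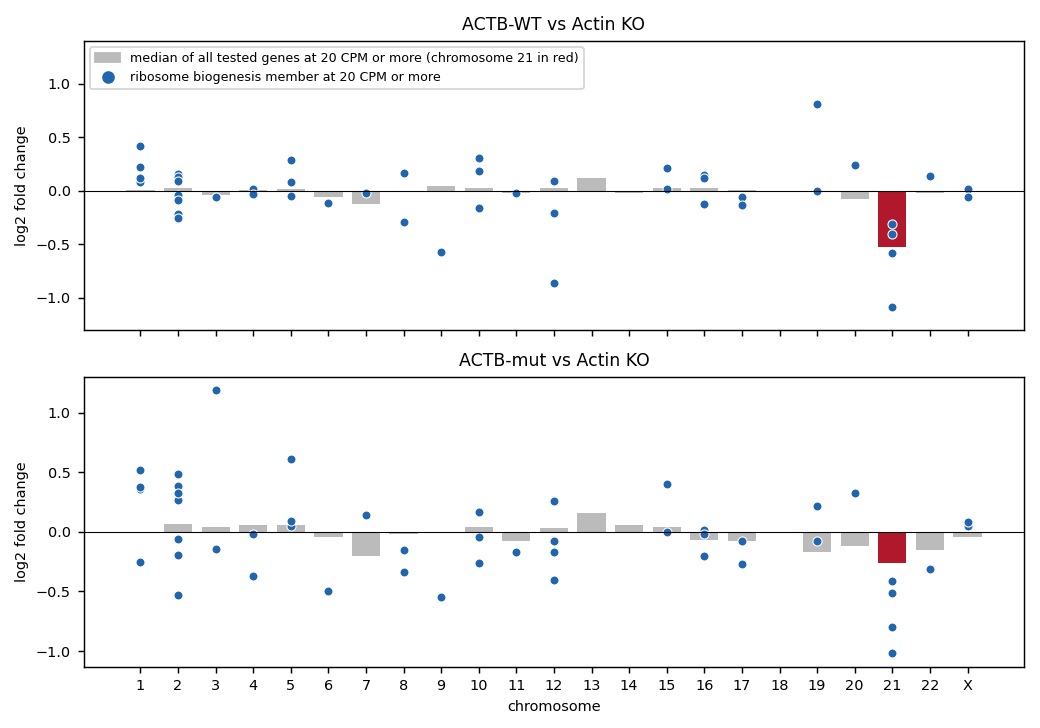
Median log2 fold change of all tested genes at 20 CPM or more on each chromosome (bars, chromosome 21 in red, members included) and the members at that level (blue points), for ACTB-WT above and ACTB-mut below, each against Actin KO. The chromosome 21 bar is the lowest in both panels, at -0.52 and -0.26, and its 4 member points all lie below 0. In the lower panel chromosome 7 is next, at -0.20.

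The comparison of ACTB-mut with ACTB-WT set the libraries labelled with each actin form against each other. No member passed edgeR's quasi-likelihood test in either direction, where 0.634% of tested genes were called higher and 0.605% lower, 1.24% in all; 12 members had an unadjusted p below 0.05 (12% of all tested genes did), DESeq2 called 2, PPAN and BOP1, and limma-voom called 0. The member median was 0, against 0.02 for all tested genes, with 28 members above 0 (51.9% of all tested genes were) and 29 below. Groups did not overlap for 6 members on the higher side (9.93% of all tested genes) and 8 on the lower (8.14%). PPAN had 104, 95.3 and 119 CPM in ACTB-mut, against 180, 154 and 146 CPM in ACTB-WT (log2 fold change -0.59, SE 0.16, adjusted p = 0.103). BOP1 had 276, 199 and 283 CPM in ACTB-mut, against 373, 372 and 331 CPM in ACTB-WT (-0.51, SE 0.16, adjusted p = 0.158). Both were lower in each ACTB-mut library than in any ACTB-WT library.

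GNL3, nucleostemin, a nucleolar GTPase, had the largest fitted fold change among the non-overlapping members, with 23, 26.1 and 12.2 CPM in ACTB-mut, against 11.5, 2.82 and 6.10 CPM in ACTB-WT (log2 fold change 1.60, SE 0.60, adjusted p = 0.279). Its Actin KO libraries spread from 4.42 to 17.5 CPM, and the ACTB-mut and ACTB-WT groups only just separated. GNL3 overlaps GLT8D1 on the opposite strand, which averaged 76 counts in this table against 105 for GNL3, and the strand setting was not given. PWP1 had 52.2, 33.5 and 41.2 CPM in ACTB-mut, against 25.7, 28.9 and 24 CPM in ACTB-WT (0.69, SE 0.24, adjusted p = 0.215). POLR1A, the largest subunit of RNA polymerase I, had 33, 36.2 and 40.5 CPM in ACTB-mut, against 62.2, 51.7 and 59.3 CPM in ACTB-WT (-0.66, SE 0.26, adjusted p = 0.292). The POLR1A groups were separate, but Actin KO, at 31.7, 63.6 and 62.7 CPM, covered both. POLR1B, the other core subunit of that enzyme, ran the other way (0.48, SE 0.24, adjusted p = 0.457).

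The SETD3 table set the lines labelled SETD3 KO, whose SETD3 RNA passed no test, against their control. No member was called in either line or in their mean, and none between the lines. With SETD3_KO1 against SETD3_CT, edgeR's quasi-likelihood test called 0 of 59 members (0.0144% of 13846 tested genes), and 8 members had an unadjusted p below 0.05 (5.75%). With SETD3_KO2 it called 0 (0.0578% of tested genes, 0.0217% higher and 0.0361% lower), and 3 had an unadjusted p below 0.05 (4.95%). With the mean of the lines it called 0 (0.0433% of tested genes, 0.00722% higher and 0.0361% lower), and 7 had an unadjusted p below 0.05 (5.68%). DESeq2 and limma-voom also called 0 members in each of these. The smallest adjusted p was 0.722 for EBNA1BP2 in SETD3_KO1 and 0.633 for NOP16 in SETD3_KO2.

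The members nonetheless sat mostly above 0. Their median log2 fold change was 0.10 in SETD3_KO1, where all tested genes had -0.02, and 37 of 59 were above 0 (48.6% of all tested genes were). In SETD3_KO2 the median was 0.22, against -0.01 for all tested genes, and 45 of 59 were above 0 (49.2%). For the mean of the lines it was 0.15, against -0.03. Both lines were set against the same SETD3_CT libraries, so the medians are not independent. Members whose groups did not overlap numbered 10 on the higher and 4 on the lower side in SETD3_KO1 (6.47% and 6.73% of all tested genes), and 5 and 0 in SETD3_KO2 (4.97% and 5.28%). Large-subunit factors other than PeBoW were above 0 in 13 of 18 in SETD3_KO1, with a median of 0.22, and in 15 of 18 in SETD3_KO2, with a median of 0.35. RNA polymerase I subunits and DDX21 had medians of -0.20 in SETD3_KO1 and -0.07 in SETD3_KO2. Without SETD3_CT replicate 2 the member medians were 0.11 in SETD3_KO1 and 0.15 in SETD3_KO2, and without SETD3_KO2 replicate 1 the SETD3_KO2 median was 0.26. The SETD3_KO1 median was 0.04 without its replicate 1, 0.18 without its replicate 2 and 0.07 without its replicate 3. Between replicates of this table the members' median deviation had an SD of 0.08 (log2).

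The summed level of the 59 members showed the libraries one by one. It was 7741, 7756 and 8614 CPM in SETD3_KO1 and 8888, 8298 and 7431 CPM in SETD3_KO2, against 7056, 7133 and 7151 CPM in SETD3_CT. Each of the 6 libraries labelled SETD3 KO lay above each of the 3 control libraries. The sum was dominated by no single gene, since without FBL and NHP2, which held 15.6% to 20.5% of it in this table, the SETD3_KO1 and SETD3_KO2 libraries spanned 6203 to 7177 CPM and the controls 5669 to 5762 CPM. As an unscaled share of all counts the members held 0.771% to 0.838% in the SETD3_KO1 and SETD3_KO2 libraries, against 0.657% to 0.730% in the controls. Further large-subunit factors, listed below, summed to 3750 to 4770 CPM in these 6 libraries, against 3600 to 3950 CPM in the controls. Further small-subunit factors summed to 2200 to 2740 against 2230 to 2410 CPM, so both lists overlapped, as did the MYC network. Sums of RNA polymerase I genes (854 to 987 against 700 to 787 CPM) and exosome genes (783 to 1020 against 562 to 744 CPM) did not overlap. Ribosomal protein genes took 18.6%, 18.8% and 19.8% of all counts in SETD3_KO1 and 20.7%, 21.3% and 20.6% in SETD3_KO2, against 21.1%, 21.4% and 21.7% in SETD3_CT; the part of this share in the members' sums was not tested. In the ACTB table the sums were 8063, 8260 and 7988 CPM in ACTB-WT libraries, 7619, 7741 and 7556 CPM in ACTB-mut libraries, against 7653, 7832 and 7915 CPM in Actin KO, with ACTB-WT above the other groups.

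**Figure D5:**
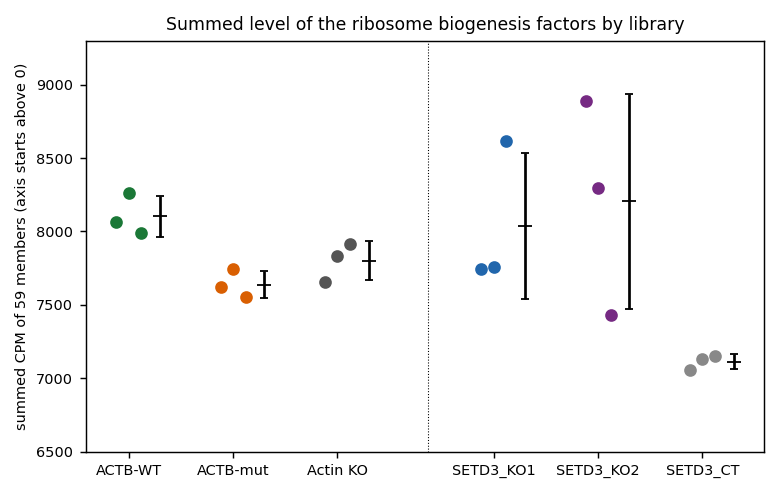
Summed TMM-scaled CPM of the 59 members in each library (points) with the mean and SD of 3 per group; the vertical axis starts above 0 and the tables were normalised separately. All SETD3_KO1 and SETD3_KO2 libraries lie above the SETD3_CT libraries, which sit between 7056 and 7151 CPM.

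RRS1, a factor that brings the small ribonucleoprotein of the large subunit into its precursor, was separate in both lines. It had 109, 87.2 and 85.9 CPM in SETD3_KO1 and 82.8, 84.6 and 99.9 CPM in SETD3_KO2, against 75, 37.2 and 64 CPM in SETD3_CT. All SETD3_KO1 and SETD3_KO2 libraries were above all controls (log2 fold change 0.67, adjusted p = 0.826, in SETD3_KO1; 0.60, adjusted p = 0.981, in SETD3_KO2; 0.64, SE 0.24, adjusted p = 0.797, for the mean). The lowest library was SETD3_CT replicate 2. GAR1 had 107, 116 and 93.6 CPM in SETD3_KO1 and 94.2, 96.8 and 101 CPM in SETD3_KO2, against 84.6, 74.9 and 81.3 CPM in SETD3_CT (mean of the lines 0.34, SE 0.17, adjusted p = 0.915). NAT10, the acetyltransferase of small-subunit rRNA, was the third member whose libraries were above all controls in both lines (0.27, adjusted p = 0.974). These were 3 members higher and 0 lower in the mean of the lines, where 1.60% and 1.67% of all tested genes had such a separation.

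Some members were separate in a single line. DKC1 had 63.5, 96.1 and 73.4 CPM in SETD3_KO1, against 61.0, 26.8 and 59.5 CPM in SETD3_CT (log2 fold change 0.66, SE 0.35, adjusted p = 0.936). EBNA1BP2 had 415, 478 and 469 CPM in SETD3_KO1, against 354, 301 and 273 CPM in SETD3_CT (0.55, SE 0.18). POLR1A had 24.9, 33.5 and 37.3 CPM in SETD3_KO1, against 49.4, 46.8 and 54.4 CPM in SETD3_CT (-0.65, SE 0.30, adjusted p = 0.857). RRP1B was also lower in each SETD3_KO1 library, at 49.4, 56.4 and 50.7 CPM, against 83.9, 63.2 and 77.7 CPM in SETD3_CT (-0.52, SE 0.29, adjusted p = 0.952). NOP16, a nucleolar protein of large-subunit assembly, had 286, 241 and 205 CPM in SETD3_KO2, against 151, 162 and 158 CPM in SETD3_CT (0.63, SE 0.19); it overlaps HIGD2A on the opposite strand, a gene of similar count, and the strand setting was not given.

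Rare members were scattered between libraries. HEATR1, a processome scaffold, had 0, 4.93 and 4.85 CPM in SETD3_KO1 and 0, 14.4 and 12.6 CPM in SETD3_KO2, against 10.5, 9.09 and 20.5 CPM in SETD3_CT. Its SETD3_KO1 libraries all lay below the controls, with a wide error (log2 fold change -2.02, SE 1.26, adjusted p = 0.971). HEATR1 overlaps LGALS8 on the opposite strand, which averaged 111 counts in the SETD3 table against 77.4 for HEATR1. NOC3L was at 0 in all SETD3_CT libraries and in 1 library of SETD3_KO1 had 3.55 CPM, with 0 in the other two; SETD3_KO2 had 0, 1.53 and 1.57 CPM, and no fold is given. LTV1, a late small-subunit factor, had 0.222 CPM in SETD3_CT replicate 2 and 0 in SETD3_KO2 replicate 1, the same shallow libraries, against 6.07 to 19.1 CPM in the others of that table.

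Between SETD3_KO2 and SETD3_KO1, edgeR's quasi-likelihood test called 0 members (0.0289% of tested genes), DESeq2 and limma-voom called 0, and 3 members had an unadjusted p below 0.05 (4.84% of tested genes did). The median of SETD3_KO2 against SETD3_KO1 was 0.07, against 0.01 for all tested genes. Groups did not overlap for 5 members on the higher side (6.16% of all tested genes) and 1 on the lower (5.76%). BYSL had 92.6, 78.4 and 81 CPM in SETD3_KO2, against 64.5, 50.7 and 59.5 CPM in SETD3_KO1 (log2 fold change 0.53, SE 0.22, adjusted p = 0.999). NOP16 had 286, 241 and 205 CPM in SETD3_KO2, against 149, 192 and 187 CPM in SETD3_KO1 (0.47, SE 0.19, adjusted p = 0.999). IMP4 was the member on the lower side, with 198, 249 and 208 CPM in SETD3_KO2, against 297, 259 and 290 CPM in SETD3_KO1 (-0.37, SE 0.21, adjusted p = 0.999).

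Other genes of the pathway came from lists of 14 RNA polymerase I genes, 33 further small-subunit factors, 40 further large-subunit factors, 14 RNA exosome genes and 11 genes of the MYC network. In ACTB-WT against Actin KO, 1 of the small-subunit factors and 1 of the large-subunit factors rose, none of the listed genes fell (0.439% of all tested genes were called higher and 0.677% lower), and no gene of these lists was called in any other comparison by edgeR's quasi-likelihood test. BUD23, the methyltransferase of a guanine in small-subunit rRNA, had 130, 137 and 137 CPM in ACTB-WT, against 75.3, 83.4 and 85.7 CPM in Actin KO (log2 fold change 0.73, SE 0.15, adjusted p = 0.0249). RPF1, a large-subunit assembly factor, had 79.7, 100 and 76.3 CPM in ACTB-WT, against 42.6, 57.3 and 43.4 CPM in Actin KO (0.84, SE 0.19, adjusted p = 0.0417). Leaving out any one of the 6 libraries ended the BUD23 call (adjusted p 0.0656 to 0.125), and leaving out any but Actin KO replicate 2 ended the RPF1 call (adjusted p 0.0457 to 0.203 over the 6 fits), with log2 fold changes of 0.67 to 0.76 and 0.70 to 0.98. The limma-voom fit called neither (adjusted p = 0.0535 for BUD23 and 0.0722 for RPF1), and a fit of these groups alone did not call RPF1 (adjusted p = 0.101). In ACTB-mut against Actin KO both were also separate on the higher side without a call (0.50, adjusted p = 0.163, and 0.68, adjusted p = 0.120). In ACTB-WT against Actin KO the medians were 0.15 for the small-subunit list, 0.20 for the large-subunit list, 0.23 for the exosome, 0 for RNA polymerase I and 0.10 for the MYC network, against -0.01 for all tested genes. In the same order they were -0.04, 0.15, 0.30, 0.03 and -0.03 in ACTB-mut against Actin KO, where all tested genes had 0.03, and -0.22, -0.09, 0.20, -0.08 and -0.46 in ACTB-mut against ACTB-WT, where all had 0.02. In SETD3_KO1 against SETD3_CT they were 0.08, 0.12, 0.13, 0.18 and -0.01, against -0.02 for all, and in SETD3_KO2 against SETD3_CT 0.10, 0.17, 0.44, 0.10 and 0.38, against -0.01.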

How the data were processed

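Polyadenylated RNA of 18 HCT-116 libraries was quantified by the authors, who deposited 2 gene tables of RSEM expected counts, not normalised. Per the submitters' processing notes, the tools were Trim Galore 0.4.5, cutadapt 1.15, RSEM 1.2.28 and Bowtie2 with GRCh38; of the annotation release and the strandedness, nothing is given in the sources used here.

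Expected counts were rounded, filtered with filterByExpr, scaled by TMM and fitted per table with all 3 groups by edgeR 4.0.16 robust quasi-likelihood F tests (two-sided, R 4.3.3); p-values were Benjamini-Hochberg adjusted over all 13882 or 13846 tested genes and called below 0.05. The standard error (SE) is the log2 fold change over the square root of its F. The fits were tested on simulated data. CPM are descriptive. Transcript lengths and coordinates came from GENCODE release 29, which matched 58496 identifiers. Alternatives used RLE scaling, no filter, DESeq2 1.42.0, limma-voom (limma 3.58.1), a replicate block, GC and length offsets, only the groups compared, and 1 library left out at a time; those for chromosome 21 were chosen after seeing the data. Members and lists were chosen with earlier results of these data known. Genes named are all called members, the 2 largest non-overlapping changes at 20 CPM or more per direction and comparison, the most abundant member per role, the label checks, called genes of the other lists and MYC; members named outside it (RRP1, NAT10, NPM1, HEATR1, LTV1, POLR1B, NOC3L, WDR75 and complex partners of the most abundant members) were chosen after their values were seen. Depth ran from 3389586 to 11652967 counts.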

Additional observations from a re-analysis of the deposited data

Results flagged for a closer look

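BYSL, whose product accompanies the small subunit out of the nucleus, was lower than every SETD3_CT library in all SETD3_KO1 libraries and higher than every SETD3_CT library in all SETD3_KO2 libraries. It had 64.5, 50.7 and 59.5 CPM in SETD3_KO1 and 92.6, 78.4 and 81.0 CPM in SETD3_KO2, against 73.7, 70.0 and 66.6 CPM in SETD3_CT. The log2 fold change was -0.27 (adjusted p = 0.998) in SETD3_KO1 and 0.26 (adjusted p = 1) in SETD3_KO2. The difference between the lines was 0.53 (SE 0.22, adjusted p = 0.999 in edgeR's quasi-likelihood test, unadjusted p = 0.0308), which did not pass; over the fits that left out 1 library it ran from 0.43 to 0.60.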

How the results depend on the processing

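The numbers of called genes moved with the tool, the filter and the libraries included. For ACTB-WT against Actin KO, ACTB-mut against Actin KO and ACTB-mut against ACTB-WT, 155, 128 and 172 genes were called; without a filter these were 320, 371 and 402, with DESeq2 358, 395 and 446, and with the replicate block 89, 85 and 83. Limma-voom called 89 in the first and a fit of the groups compared called 104 in the last. For SETD3_KO1, SETD3_KO2 and their mean against SETD3_CT, and SETD3_KO2 against SETD3_KO1, 2, 8, 6 and 4 genes were called; without a filter 58, 68, 85 and 58, with DESeq2 72, 90, 91 and 56, and with GC and length offsets 7, 23, 10 and 15. The first 3 were 0, 1 and 0 with the replicate block, the first and second were 1 and 1 in fits of the groups compared, and limma-voom called 9 between the lines.

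Called members of ACTB-WT against Actin KO numbered 2, with 3 under DESeq2, which added PWP1, 1 under limma-voom and 0 under the replicate block. Those of ACTB-mut against Actin KO numbered 2, with 1 under the block, 0 with GC and length offsets and 1 in the fit of these groups; DESeq2 called 2 in ACTB-mut against ACTB-WT where edgeR called 0. Leaving out 1 library gave 0 to 2, 0 to 1 and 0 members, and 79 to 106, 34 to 77 and 60 to 129 genes, in those 3 comparisons; in the SETD3 table, in the order above, it gave 0 to 4, 3 to 7, 0 to 7 and 3 to 5 genes and 0 members throughout. These fits held fewer samples; the cause was not tested.

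Member medians in the ACTB table all lay near 0. For ACTB-WT against Actin KO the median was -0.01 with DESeq2, 0 with GC and length offsets and -0.08 to -0.02 without 1 library. For ACTB-mut against Actin KO it was -0.04 without a filter, -0.03 with the offsets and -0.09 to -0.02 without 1 library. For ACTB-mut against ACTB-WT it was -0.02 with RLE scaling and with DESeq2, -0.04 with the offsets and -0.04 to 0.03 without 1 library. In the SETD3 table the medians without 1 library stayed positive in both SETD3 KO lines against SETD3_CT (0.04 to 0.18 and 0.15 to 0.26) and for their mean (0.10 to 0.22), and ran from -0.01 to 0.13 between the lines.

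With the replicate block PPAN (adjusted p = 0.0666), URB1 (0.0553) and PWP2 (0.102) were no longer called and RRP1B still was; BUD23 (0.0666) and RPF1 (0.0562) were not called either. The numbers were not taken to pair the samples: deviations of same-numbered libraries correlated at -0.104 to 0.082 (ACTB table) and -0.43 to 0.204 (SETD3 table). The chromosome 21 medians without members kept their sign in every alternative tried: -0.59 to -0.51 for ACTB-WT and -0.33 to -0.18 for ACTB-mut against Actin KO without 1 library, and -0.48 and -0.17 with the offsets. With 3 libraries a group and these spreads, small changes were not detectable.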

Other observations

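In ACTB-mut against ACTB-WT the 55 chromosome 21 genes at 20 CPM or more that are not members had a median log2 fold change of 0.31, the highest of 23 chromosomes. Of them 5 were called higher and 2 lower (70 and 78 of all 5429 genes at that level). The 5 called higher start between 25716503 and 33503931, the part that holds URB1 (0.57). The 2 called lower start at 44978832 and 45405137, beyond RRP1B (-0.62), RRP1 (-0.11) and PWP2 (-0.22). Between RRP1B and PWP2, PDXK (-0.01), CSTB (0.09) and AGPAT3 (-0.44) lay on both sides of 0. In SETD3_KO2 against SETD3_CT, 50 chromosome 21 genes at that level that are not members had a median of -0.21, the lowest of 23 chromosomes, and none was called.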
